A study of Mus musculus with 24 samples.

Results

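The AP-1 and immediate early response was followed in 10 genes across 24 RNA sequencing libraries of mouse kidney. The genes were chosen by symbol: the Fos family (Fos, Fosb, Fosl1, Fosl2), the Jun family (Jun, Junb, Jund), the ATF family gene Atf3, and the zinc finger genes Egr1 and Klf6. These are 10 of the 35460 genes in the files, and all 10 passed the filter on low counts in both experiments. AP-1 is a dimeric transcription factor in which Fos, Jun and ATF proteins pair through a leucine zipper and bind short DNA elements related to the TPA response element. Immediate early genes are transcribed within minutes of a growth factor, stress or injury signal without new protein synthesis, largely through MAP kinases acting on serum response factor, CREB and pre-existing AP-1. In the kidney, Fos, Jun, Atf3, Egr1 and Klf6 are known as genes that respond to tubular injury.

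The knockout experiment held 3 groups. Chow-fed mice (n = 4) served as the control, and their genotype is not given in the sources used here. Mice called wild type were negative for CAG-ERCre and ate an adenine diet for 14 days (n = 6). Mice labelled ENPP1 knockout were positive for CAG-ERCre, a ubiquitous promoter driving a tamoxifen-dependent Cre, on an ENPP1 fl/fl background, and ate the same diet for 14 days (n = 6). Whether wild-type mice and chow controls carried the floxed alleles or received tamoxifen is not stated, so the presence of Cre and the knockout label cannot be told apart. In the antibody experiment all mice ate adenine for 14 days and received control IgG (n = 4) or a monoclonal antibody to human ENPP1, hENPP1 mAb (n = 4), at 50 mg/kg into the peritoneum 2 times a week. Whether these mice carried human ENPP1, and the age, sex and strain of any group, are not given. Dietary adenine is oxidised to a product that crystallises in the tubules and injures the kidney. ENPP1 is a membrane enzyme that cleaves extracellular ATP and other nucleotides. The labels do not say that each library is a separate animal, so p-values measure the spread between these libraries.

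The promoters of 4 members carry an element of the family to which AP-1 and CREB proteins bind, and they are shown because the members' own products can act there. Each sequence runs 5′ to 3′ on the gene's strand from 250 bases before to 50 bases after the RefSeq start in GRCm38.p6, a build other than the GRCm39 of the submitters' processing notes. Capitals mark the motif searched on both strands: TGACGT in Fos and, as its reverse complement, in Atf3, and TGACNTCA in Jun and Klf6. The windows are chr12:85473640-85473939 (plus strand) for Fos, chr4:95052173-95052472 (minus) for Jun, chr1:191183284-191183583 (minus) for Atf3 and chr13:5861239-5861538 (plus) for Klf6.
Fos: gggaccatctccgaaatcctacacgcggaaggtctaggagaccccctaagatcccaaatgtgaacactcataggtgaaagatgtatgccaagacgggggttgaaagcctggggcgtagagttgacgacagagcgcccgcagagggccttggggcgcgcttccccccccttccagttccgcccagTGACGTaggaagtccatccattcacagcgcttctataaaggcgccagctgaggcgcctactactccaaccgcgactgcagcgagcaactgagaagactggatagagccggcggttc
Jun: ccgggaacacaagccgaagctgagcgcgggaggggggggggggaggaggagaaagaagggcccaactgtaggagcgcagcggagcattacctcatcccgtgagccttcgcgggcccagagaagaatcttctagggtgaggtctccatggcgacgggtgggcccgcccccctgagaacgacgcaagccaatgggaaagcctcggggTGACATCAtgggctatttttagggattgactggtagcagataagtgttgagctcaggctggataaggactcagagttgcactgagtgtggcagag
Atf3: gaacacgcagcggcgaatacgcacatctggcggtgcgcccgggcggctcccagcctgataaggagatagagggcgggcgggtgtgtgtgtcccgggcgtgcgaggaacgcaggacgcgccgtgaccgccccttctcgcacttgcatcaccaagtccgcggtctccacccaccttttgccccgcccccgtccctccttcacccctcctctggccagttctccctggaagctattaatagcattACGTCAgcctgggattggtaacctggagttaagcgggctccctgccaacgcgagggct
Klf6: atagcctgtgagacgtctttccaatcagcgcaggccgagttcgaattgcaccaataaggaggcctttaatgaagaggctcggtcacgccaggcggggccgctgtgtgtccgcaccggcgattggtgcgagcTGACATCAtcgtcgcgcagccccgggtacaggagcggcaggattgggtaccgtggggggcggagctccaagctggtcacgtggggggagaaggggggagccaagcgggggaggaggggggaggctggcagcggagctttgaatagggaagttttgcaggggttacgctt
The motif began 66 bases before the start in Fos, 45 before it in Jun, 8 before it in Atf3 and 119 before it in Klf6. Of the 10 members, 8 had an entry in the promoter table that was used here, and Fosl1 and Egr1 have no window. The window of Jund lies 1210 bases from the nearest GENCODE M21 start of that gene, so it may not be the start in use. That of Fosl2 lies 299 bases from one, so the same limit may hold there. The remaining windows lie within 30 bases of one. TGACGT was found in 2 of them and in 7.51% of the 32851 mouse promoters of the same length. TGACNTCA was found in another 2 and in 8.83% of all promoters. The AP-1 element TGANTCA was in none of the 8 windows and in 7.81% of all promoters. The EGR motif GCGNGGGCG was in the windows of Fosb and Fosl2 (5.55% of all promoters), and the CCAAT box in Jun, Junb, Atf3 and Klf6 (37.4%). The CArG box, the site of serum response factor, was in none of the 8 (1.63%). Sites more than 250 bases before the start, and any site of Fosl1 or Egr1, were outside this search. The absence of a motif here therefore does not show that a member lacks it. A match describes letters in these windows and is no evidence of binding.

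Libraries held between 21164187 and 28350038 estimated reads in the knockout experiment, and between 44080791 and 50813749 in the other. Levels below are CPM, read counts relative to library size, TMM-scaled within an experiment, and log2 changes are given ± standard error (SE). The adjusted p is edgeR's (quasi-likelihood F test, Benjamini-Hochberg), with 0.05 as the threshold. The 2 experiments were scaled separately, so CPM are compared within each only. Enpp1, the targeted gene, stood at 22.7 ± 1.19 CPM (SD, n = 6) in the libraries labelled knockout and at 22.0 ± 1.52 CPM (n = 6) in wild-type adenine libraries. That log2 change was 0.05 ± 0.051 (adjusted p = 0.465): Enpp1 RNA was not lower in the libraries labelled knockout, and the deleted exons are not given. Mouse Enpp1 was uneven under the antibody, at 9.51, 2.62, 3.26 and 17.4 CPM, against 7.22 to 8.86 with IgG. Proximal tubule markers (12 genes) marked the tissue as kidney, with summed levels of 29820 to 32420 CPM in chow.

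Jund, the gene of a broadly expressed Jun protein, had the most abundant RNA of the members per transcript length in the knockout experiment. In deposited TPM, which correct for length, its mean level in chow was 47.7 (range 45.3 to 52.5, n = 4). Jun at 12.7, Junb at 12.02 and Klf6 at 11.1 TPM followed it. The ranges of Jun and Junb overlapped in chow, as did those of Junb and Klf6. Egr1 at 7.55, Fos at 2.27, Fosl2 at 1.46 and Atf3 at 0.768 TPM came next, with no overlap between neighbours. Fosb stood at 0.113 and Fosl1 at 0.0140 TPM in chow, the lowest 2. In wild-type adenine libraries the order was Jund, Junb, Klf6, Jun, Egr1, Fosl2, Atf3, Fos, Fosl1 and Fosb, from 193 to 0.808 TPM. There the ranges of Klf6 and Jun overlapped, as did those of Atf3 and Fos, and no other neighbours did. The order in the antibody experiment differed at the top: Klf6 led at 97.4 TPM with IgG and 60.4 TPM with the antibody, ahead of Jund at 62.0 and 35.1 TPM. TPM serve here to rank genes within a group, since they and CPM gave unlike changes between groups. From chow to wild-type adenine, mean Jund went from 47.7 to 193 TPM but from 111 to 243 CPM. Enpp1 went from 5.43 to 4.42 TPM but from 54.2 to 22.0 CPM. The cause of this disagreement was not tested.

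**Figure D1:**
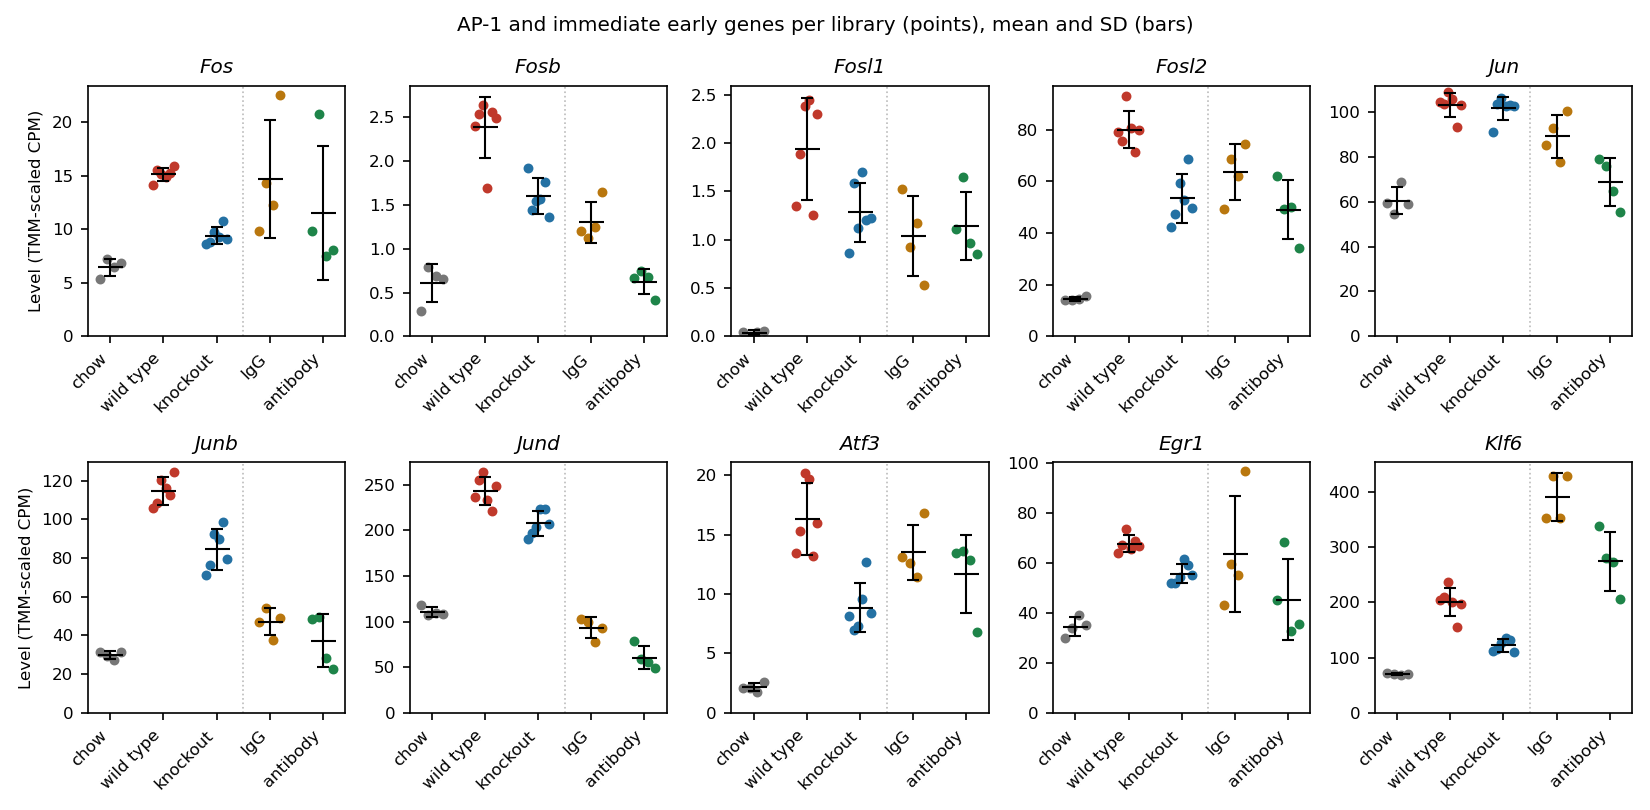
Level of each of the 10 genes in CPM (vertical axis, linear, from 0) in each library (points), with the group mean and SD (bars), for chow, wild-type adenine, labelled knockout adenine, IgG adenine and antibody adenine. The dotted line parts the 2 experiments, which were scaled separately. All 10 genes stand higher in wild-type adenine than in chow libraries without overlap, and Klf6 and Fosb part IgG from antibody.

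Wild-type adenine libraries were compared with chow libraries to describe how the injured kidney expresses these genes. The genotype of the chow mice is not given, so the groups may differ in more than diet. All 10 genes were higher on adenine, and for all 10 the 6 adenine libraries lay above the 4 chow libraries. Of all 16965 genes tested, 44.0% were called higher and 40.9% lower in this comparison, 84.9% in all. Groups without overlap were found for 75.2%, so most genes differed between these groups. The members' median log2 change was 1.73, beside 0.07 over all genes tested. Of the 9 members other than Fosl1, Atf3 had the highest fold (7.58-fold) and Jun the lowest (1.70-fold). Atf3 encodes a stress-induced partner of Jun proteins that often acts as a repressor. Fosl1 rose more than Atf3 by the ratio of reads given below.

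RNA of all 4 Fos family genes, whose proteins need a Jun or other bZIP partner to bind DNA, rose. Fos was at 5.37, 7.18, 6.43 and 6.84 CPM in the chow libraries and at 14.1 to 15.9 CPM (median 15.2) in the 6 wild-type adenine libraries. This tight rise was 2.35-fold (log2 change 1.23 ± 0.083, adjusted p = 5.89e-11). Fosl2, which encodes Fra-2, was at 14.1, 14.2, 14.4 and 15.6 CPM on chow and 71.6 to 93.0 (median 79.5) on adenine. Its rise was 5.48-fold (2.46 ± 0.117, adjusted p = 3.34e-13). This put it ahead of Fos per length in wild-type adenine libraries, at 15.1 against 10.05 TPM. Fosb stood at 0.288, 0.786, 0.692 and 0.659 CPM on chow and between 1.70 and 2.64 on adenine (median 2.52), a log2 change of 1.98 ± 0.214 (adjusted p = 6.05e-08). Fosl1, which encodes Fra-1, was next to absent on chow: 3 reads over the 4 libraries, 1 of which had none. On adenine it had 301 reads over 6 libraries and 1.26 to 2.44 CPM. The ratio was 51.1, with a 95% counting interval of 17.3 to 249 that covers counting error only. The chow count is so low that a fitted fold would depend on the prior count.

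RNA of the Jun family genes, whose proteins can dimerise with each other as well as with Fos proteins, rose for all, Junb most. Junb stood at 31.6, 29.2, 27.3 and 31.3 CPM on chow and at 106 to 124 CPM (median 114) on adenine. The difference was 3.84-fold (1.94 ± 0.086, adjusted p = 1.35e-13). Jund, at 119, 107, 109 and 108 CPM on chow, reached 222 to 264 CPM (median 243), a log2 change of 1.14 ± 0.062 (adjusted p = 2.53e-12). Jun, the founding member and the best known transactivator of the family, went from 59.5, 54.6, 68.9 and 58.9 CPM to a range of 93.3 to 109 (median 104). Its change of 0.77 ± 0.062 (adjusted p = 8.93e-10) was the lowest of the 10.

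Atf3 was low in every chow library, at 2.11, 2.10, 1.78 and 2.58 CPM. In wild-type adenine libraries it held 13.2 to 20.1 CPM (median 15.6), a log2 change of 2.92 ± 0.195 (adjusted p = 4.62e-11). Egr1, a zinc finger factor that binds GC-rich elements, stood at 29.9, 34.1, 39.2 and 35.0 CPM on chow and 64.2 to 73.7 (median 67.2) on adenine (0.97 ± 0.068, adjusted p = 1.00e-10). Klf6, a Krüppel-like zinc finger factor, was level on chow, at 71.7, 71.1, 68.0 and 69.6 CPM. On adenine Klf6 ranged from 156 to 236 CPM (median 203), 2.86-fold higher (1.52 ± 0.091, adjusted p = 9.88e-12). In whole kidney RNA, a change in the number of cells of a type and a change in RNA per cell cannot be told apart. Proximal tubule markers were lower on adenine for 12 of 12 genes (summed level 2540 to 4808 CPM against 29820 to 32420) and macrophage markers higher for 8 of 9 (369 to 553 against 165 to 182). Neutrophil markers rose for 6 of 6 tested genes (43.8 to 63.7 against 8.20 to 12.8 CPM), with Mmp8 and Camp at 0 reads in chow. Red blood cell markers were lower for 5 of 5 (12.5 to 35.7 against 1072 to 1295 CPM), endothelial markers for 7 of 7 (139 to 201 against 472 to 524) and podocyte markers for 4 of 5 (124 to 165 against 458 to 482). Distal nephron markers were lower for 8 of 9 (2531 to 3176 against 6035 to 8230 CPM). Their part in the members' changes was not tested.

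The make-up of the 2 families differed between chow and wild-type adenine libraries. Shares were taken of the summed TPM of each family within a library, which removes any scaling between libraries, and compared by exact two-sided permutation tests over libraries (28 tests adjusted together; 0.00476 is the smallest p that 4 against 6 libraries allow). Fos made up 58.7% ± 2.95 (SD, n = 4) of Fos family RNA on chow and 36.8% ± 2.19 (n = 6) on adenine in the wild type. Fosl2 went the other way, from 38.1% ± 3.53 to 55.0% ± 2.10, and Fosl1 from 0.374% ± 0.251 to 5.28% ± 1.11. Each of these 3 shares had an exact permutation p of 0.00476 (adjusted 0.0103). Fosb made up 2.88% on chow and 2.94% on adenine (exact permutation p = 0.910). In the Jun family, Junb went from 16.6% ± 0.976 to 26.4% ± 1.32, while Jun went from 17.6% ± 1.61 to 12.6% ± 0.426 and Jund from 65.8% ± 1.10 to 61.0% ± 1.33, again with exact permutation p = 0.00476 (adjusted 0.0103) each.

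**Figure D2:**
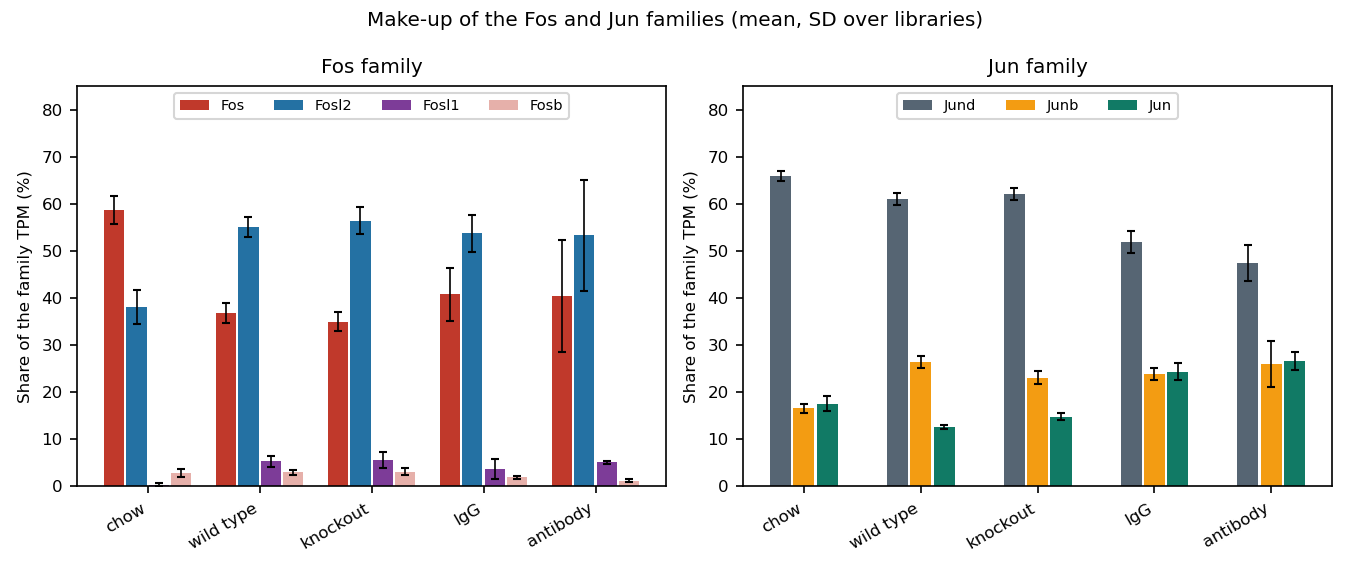
Share of the summed TPM of the Fos family (left) and the Jun family (right) held by each gene, in percent on a linear axis from 0, as mean (bars) and SD over libraries (error bars) in the 5 groups. Fos falls from 58.7% to 36.8% and Fosl2 rises from 38.1% to 55.0% between chow and wild-type adenine, and Jund keeps the highest Jun family share in every group.

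Libraries labelled knockout were then compared with wild-type libraries, both on adenine, to see how levels on the diet differ with the ENPP1 label. No group labelled knockout ate chow. A smaller response to the diet and a lower level before it therefore cannot be told apart. Of the 10 members, 9 were lower in the labelled knockout and Jun was not called. Among all genes tested 21.3% were called lower and 25.1% higher, 46.4% in all. The members' median log2 change was -0.58, beside -0.02 over all genes. For 6 members (Fos, Fosl2, Junb, Atf3, Egr1 and Klf6) the 2 groups did not overlap, which held for 24.7% of all genes. Atf3 fell most and Jund least among those called.

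Fos stood at 8.62 to 10.8 CPM (median 9.17, n = 6) in the labelled knockout, entirely below the wild-type range of 14.1 to 15.9 CPM, a log2 change of -0.69 ± 0.069 (adjusted p = 3.88e-07). Fosl2 was at 42.3 to 68.7 CPM (median 51.4) against a wild-type median of 79.5 (-0.58 ± 0.090, adjusted p = 4.05e-05). Fosb, at 1.36 to 1.92 CPM, overlapped the wild type, whose lowest library held 1.70 CPM (-0.58 ± 0.156, adjusted p = 0.00547). Fosl1 also overlapped, at 0.862 to 1.70 CPM against 1.26 to 2.44. Its change of -0.59 ± 0.202 (adjusted p = 0.0229) lost its call without labelled knockout replicate 1 or without wild-type replicate 3, 4 or 6, with an adjusted p of 0.0553 to 0.0590. All 4 Fos family genes were thus called lower, the call for Fosl1 depending on single libraries.

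Jun set itself apart in its family. It held 91.3 to 106 CPM (median 103) in the labelled knockout and 93.3 to 109 (median 104) in the wild type, and its log2 change was -0.02 ± 0.054 (95% interval -0.13 to 0.09, adjusted p = 0.784). Junb fell to 71.2 to 98.5 CPM (median 84.5) from a wild-type range of 106 to 124 (-0.44 ± 0.070, adjusted p = 5.70e-05). Jund was at 190 to 224 CPM (median 206), overlapping the wild type by a narrow margin (-0.23 ± 0.053, adjusted p = 0.00181). The family shares moved accordingly: Jun made up 14.8% ± 0.794 of Jun family TPM in the labelled knockout and 12.6% ± 0.426 in the wild type (exact permutation p = 0.00216, adjusted 0.0103). Junb made up 23.1% ± 1.41 against 26.4% ± 1.32 (exact permutation p = 0.00649, adjusted 0.0130). The 4 Fos family shares did not pass, the nearest being that of Fos at 34.9% against 36.8% (exact permutation p = 0.154, adjusted 0.239).

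Atf3 was at 7.003 to 12.7 CPM (median 8.27) in the labelled knockout, below all 6 wild-type libraries (-0.88 ± 0.138, adjusted p = 5.02e-05). Klf6 stood at 110 to 136 CPM (median 121) against 156 to 236 (-0.72 ± 0.077, adjusted p = 7.99e-07). Egr1, at 52.0 to 61.7 CPM (median 54.8), lay just under the wild-type minimum of 64.2 CPM (-0.28 ± 0.058, adjusted p = 0.000649). Proximal tubule markers were higher in the labelled knockout for 12 of 12 genes (6900 to 12500 CPM summed, against 2540 to 4808), and macrophage markers differed for 2 of 9, both lower (399 to 551 against 369 to 553 CPM). Red blood cell markers were higher for 5 of 5 (204 to 492 against 12.5 to 35.7 CPM). So were endothelial markers for 7 of 7 (202 to 290 against 139 to 201 CPM) and podocyte markers for 5 of 5 (202 to 378 against 124 to 165). Distal nephron markers were higher for 8 of 9 (3919 to 5170 against 2531 to 3176 CPM). Fibroblast markers were higher for 3 of 7, and neutrophil markers lower for 1 of 6 tested. Their part in the members' changes was not tested.

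Against chow, the labelled knockout on adenine still had all 10 members higher, each without overlap. Among all genes 40.2% were called higher and 39.9% lower, 80.1% in all, and 69.7% had groups without overlap. The chow libraries are those of the wild-type comparison, so the 2 sets of changes share their controls and are set side by side as values. With no labelled knockout libraries on chow, they do not show whether the response to the diet differed. Fos was 1.46-fold above chow in the labelled knockout and 2.35-fold in the wild type. For Fosl2 the folds were 3.66 and 5.48, for Junb 2.84 and 3.84, for Atf3 4.13 and 7.58, and for Klf6 1.74 and 2.86. Jun was 1.68-fold and 1.70-fold above chow. Fosl1 had 199 reads over the 6 labelled knockout libraries, 34.1 times the chow level (95% counting interval 11.5 to 167).

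**Figure D3:**
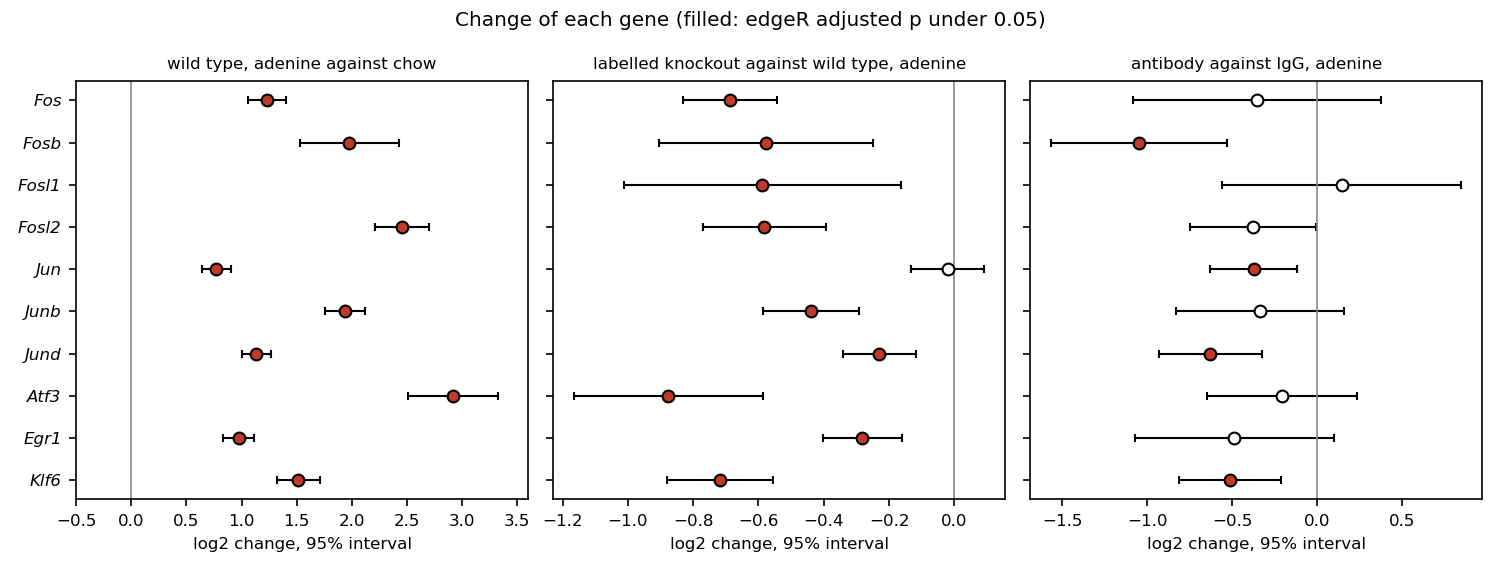
Log2 change of each gene (points) with its 95% interval (bars) in wild-type adenine against chow, labelled knockout against wild type on adenine, and antibody against IgG on adenine. Filled points passed an edgeR adjusted p of 0.05. Fosl1 against chow is left out because its fitted fold depends on the prior count. All points of the first panel lie above 0, Jun alone is open in the second, and 4 of 10 points are filled in the third.

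The antibody was compared with control IgG in mice that all ate adenine. Fosb, Jun, Jund and Klf6 were lower with the antibody, and the other 6 members did not pass the test. Among all 16410 genes tested 28.0% were called lower and 27.2% higher, 55.3% in all, so 4 of 10 members is a share near that background. The members' median log2 change was -0.38, beside -0.04 over all genes. Fosb and Klf6 were the 2 members whose groups did not overlap, which held for 50.6% of all genes.

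Fosb stood at 1.20, 1.12, 1.25 and 1.64 CPM with IgG and at 0.667, 0.742, 0.680 and 0.413 with the antibody. Every antibody library lay below every IgG library (-1.05 ± 0.235, adjusted p = 0.00329). Klf6 was at 353, 429, 353 and 429 CPM with IgG and 337, 280, 272 and 206 with the antibody (-0.51 ± 0.137, adjusted p = 0.00864). The gap between the groups was narrow, with antibody replicate 1 just under the lowest IgG library. Jund was at 103, 99.3, 77.6 and 92.8 CPM with IgG and 78.3, 58.9, 55.3 and 48.8 with the antibody, overlapping in 1 library of each group (-0.63 ± 0.138, adjusted p = 0.00293). Jun, at 85.4, 93.0, 77.8 and 100 CPM with IgG and 79.1, 76.0, 64.7 and 55.6 with the antibody, overlapped as well (-0.37 ± 0.116, adjusted p = 0.0181). That call for Jun was lost without antibody replicate 3 or IgG replicate 2 or 4, with an adjusted p of 0.0513 to 0.0624.

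Fos and Egr1 spread widely within both groups and did not pass. Fos held 9.82, 14.3, 12.2 and 22.5 CPM with IgG and 9.81, 20.7, 7.46 and 8.01 with the antibody (-0.35 ± 0.332, adjusted p = 0.385). Egr1 held 43.0, 59.5, 55.1 and 96.9 CPM with IgG and 45.1, 68.3, 32.7 and 35.4 with the antibody (-0.49 ± 0.266, adjusted p = 0.141). In both genes antibody replicate 2 and IgG replicate 4 stood above the rest of their groups. Without antibody replicate 2, Fos passed at -0.80 (adjusted p = 0.0251) and Egr1 at -0.75 (adjusted p = 0.0281). With both of these libraries left out, an alternative added after seeing the data, Fos was at -0.53 (adjusted p = 0.0307) and Egr1 at -0.48 (adjusted p = 0.0327). This setting drops the 2 libraries farthest in Fos, which narrows the spread of Fos and Egr1 by construction. Its values therefore do not test either gene. That setting again called 4 members lower, but Fos and Egr1 took the place of Jun (adjusted p = 0.0527) and Klf6 (adjusted p = 0.0544). The count of 4 therefore hides which genes are called, and Fosb and Jund are the 2 that both settings hold. Klf6, like Fosb and Jund, kept its call when any single library was left out (adjusted p = 0.00241 to 0.0282 for Klf6).

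Junb, at 46.8, 54.4, 37.7 and 49.2 CPM with IgG, split under the antibody into 48.3 and 49.5 against 28.2 and 22.8 CPM (-0.34 ± 0.225, adjusted p = 0.223). Fosl2 was at 49.1, 68.7, 61.9 and 74.7 CPM with IgG and 62.1, 49.4, 50.1 and 34.2 with the antibody (-0.38 ± 0.168, adjusted p = 0.0774). Leaving out antibody replicate 1 or IgG replicate 1 put Fosl2 past the threshold (adjusted p = 0.0223 and 0.0299). Atf3 was at 13.1, 12.6, 11.5 and 16.8 CPM with IgG and at 13.4, 13.6, 12.9 and 6.79 with the antibody (-0.21 ± 0.200, 95% interval -0.65 to 0.23, adjusted p = 0.399). Fosl1 had the only positive estimate, with 1.52, 0.930, 1.17 and 0.534 CPM against 1.11, 1.65, 0.961 and 0.853, and its sign turned without antibody replicate 2 or IgG replicate 4 (0.14 ± 0.320, adjusted p = 0.719). For Fos, Fosl2, Junb and Egr1 the 95% interval of the antibody change included the change called in the labelled knockout, so a failed test does not show equal levels. None of the 7 family shares passed with the antibody. The nearest was Fosb, at 1.21% against 1.93% of Fos family TPM (exact permutation p = 0.0286, the smallest that 4 against 4 allow, adjusted 0.0533).

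Markers of other cell types moved widely in the same libraries. Proximal tubule markers were higher with the antibody for 12 of 12 genes (17520 to 26400 CPM summed, against 4903 to 9093). Macrophage markers were lower for 9 of 9 (193 to 287 against 415 to 777 CPM), and fibroblast markers for 6 of 7 (107 to 166 against 253 to 457 CPM). Their part in the members' changes was not tested.

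The change in the labelled knockout and the change with the antibody were compared directly in a fit of the 20 adenine libraries. Of the 10 members, 1 differed: the Atf3 change was lower in the labelled knockout (difference of log2 changes -0.74 ± 0.262, adjusted p = 0.0299). Among all 17119 genes 37.9% differed, 21.6% lower and 16.3% higher. Among the scalings and left-out libraries tried, the Atf3 call was lost under upper-quartile scaling (adjusted p = 0.0920) and without wild-type replicate 3 or 4, antibody replicate 1, 2 or 3, or IgG replicate 2 or 3 (adjusted p = 0.0517 to 0.0734). Jun fell with the antibody and not in the labelled knockout, yet the difference between those changes was 0.28 ± 0.118 (adjusted p = 0.0700) and did not pass. It did pass under upper-quartile scaling, without mitochondrial genes, and without labelled knockout replicate 1, antibody replicate 1 or 2, or IgG replicate 3 (adjusted p = 0.00798 to 0.0495). The difference for Jund was 0.32 ± 0.138 (adjusted p = 0.0688), and it passed under upper-quartile scaling, without mitochondrial genes, and without antibody replicate 1 or IgG replicate 3 (adjusted p = 0.00303 to 0.0423). Fosl1 passed without IgG replicate 1 (adjusted p = 0.0382) and Klf6 without antibody replicate 4 (adjusted p = 0.0423). For Fos the difference was -0.41 ± 0.328 (95% interval -1.10 to 0.27, adjusted p = 0.339).

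Within groups, Fos and Egr1 varied together. Over 24 libraries, each taken as its log2 deviation from its group mean, Pearson's r between Fos and Egr1 was 0.942 and Spearman's rho 0.752 (permutation p = 0.00018 and 0.00046, adjusted over 9 members 0.00162 and 0.00414). Without the 2 libraries farthest in Fos, antibody replicate 2 and IgG replicate 4, r was 0.872. It was 0.571 over the 16 libraries of the knockout experiment and 0.978 over the 8 of the antibody experiment. In the knockout experiment Fosb (r = 0.668) and Fosl2 (r = 0.569) stood above or level with Egr1. Over all 24 libraries r was 0.476 for Fosb (permutation p = 0.0391, adjusted 0.176) and 0.449 for Fosl2 (permutation p = 0.168, adjusted 0.263). Junb passed by rank only (rho 0.572, permutation p = 0.00941, adjusted 0.0423; r 0.599, adjusted 0.225). Fosl1 showed r = -0.07 with Fos (permutation p = 0.784, adjusted 0.810). Both values of a point come from one library and its scaling factor.

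**Figure D4:**
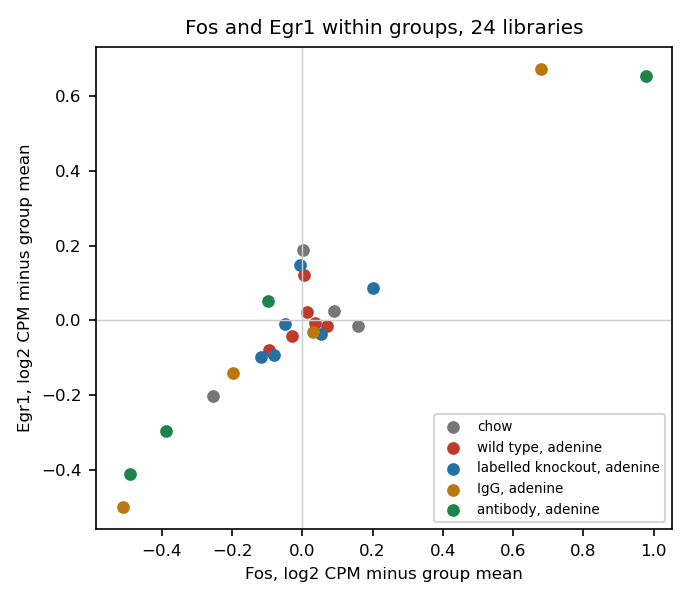
Fos (horizontal) and Egr1 (vertical) in each of 24 libraries, as log2 CPM minus the mean of its group, coloured by group. The libraries run along a rising line (r = 0.942), with 1 IgG and 1 antibody library far to the upper right.

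Among 13115 genes with at least 1 CPM in every group, Egr1 was also the gene most like Fos by this measure. Prkcd (r = 0.74), Olfr1192-ps1 (0.73), Mtfmt (0.73) and Numa1 (0.72) followed, each over the same 24 libraries. For Olfr1192-ps1 the rank correlation was 0.294, far under its r. The genes most like Fosl1 were Rbm42 (r = 0.82), Dapk3 (0.80), Cfap298 (0.80), Lmna (0.79) and Usp20 (0.76), and no member was among them. These likenesses are descriptions chosen as the top of all genes.

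The split of each gene's reads between its annotated transcripts gave no call. Of 28 shares of the leading transcript tested by exact permutation, 0 passed after adjustment and 8 had an unadjusted p under 0.05, all in genes whose leading transcript averaged 94.5% of the reads or more. In Fosb and Atf3 the deposited split swung widely between libraries of one group. Atf3-201 took from 24.5% to 100% of Atf3 reads in wild-type adenine libraries, and Fosb-201 from 0% to 94.9% of Fosb reads. Only gene totals are therefore used for these genes.

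Other immediate early genes moved in both directions. Of 28 such genes, 18 were higher and 6 lower in wild-type adenine libraries than in chow (median log2 change 0.90, beside 0.07 over all genes). Among all genes 44.0% were higher and 40.9% lower. Egr3 rose from 0.0744 to 2.63 CPM (log2 change 5.04), Egr2 by 3.00 and Myc, the growth-promoting factor, by 2.96. Sgk1, a kinase of sodium transport induced by mineralocorticoids, fell from 186 to 45.4 CPM (-2.04). In the labelled knockout 13 of these 28 were lower and 8 higher than in the wild type (21.3% and 25.1% of all genes). Myc fell by 0.78, while Errfi1, a feedback inhibitor of the EGF receptor, rose by 1.61 and Dusp1, a MAP kinase phosphatase, by 0.96. With the antibody 14 were lower and 2 higher (28.0% and 27.2% of all genes), and Errfi1 was again higher (1.39, adjusted p = 0.000109). Ier5 (-0.98), Egr2 (-0.90) and Nr4a2 (-0.89) were lower.

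Partners of AP-1 and relatives of its members moved both ways too. Of all genes tested, 84.9% were called on adenine, 46.4% in the labelled knockout and 55.3% with the antibody. The counts below therefore do not by themselves set these lists apart. Of 10 other bZIP genes, 5 rose and 2 fell with adenine, led by Maff, a small Maf protein (2.61). In the labelled knockout 3 fell, all small Maf genes (Maff -0.56, Mafg -0.20 and Mafk -0.19), and none rose, whereas 3 rose and 3 fell with the antibody. Of 12 Krüppel-like and EGR cofactor genes, 8 rose and 3 fell on adenine. Klf4 rose by 1.31, and Klf15 and Klf9, both glucocorticoid-responsive, fell by 2.49 and 2.06. Klf15 was higher in the labelled knockout than in the wild type (1.14) and with the antibody than with IgG (2.03). Klf4 was lower in both, with log2 changes of -0.52 and -1.28. Of 15 kinases and SRF pathway genes upstream, 4 rose and 8 fell on adenine. The kinase gene Map2k2 fell by 1.33.

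Genes known as AP-1 targets were largely higher on adenine. Of 18 tested, 14 rose and 3 fell (median log2 change 1.77). Over all genes 44.0% were higher and 40.9% lower, with a median of 0.07. Lif, a cytokine of the interleukin-6 family, went from 0.403 to 38.6 CPM (6.57), Timp1, a metalloproteinase inhibitor, from 0.597 to 34.3 CPM (5.85) and the hyaluronan receptor gene Cd44 from 2.98 to 68.4 CPM (4.52). In the labelled knockout 7 of 18 were lower and 2 higher than in the wild type (21.3% and 25.1% of all genes). Lif (-0.89) and Cd44 (-0.51) were lower, and the collagenase gene Mmp13 was higher (0.78). Mmp13 was 1 of the 3 that fell on adenine, from 4.12 CPM on chow to 0.692 CPM in wild-type adenine libraries (-2.57). With the antibody 10 of 19 were lower and 1 higher (28.0% and 27.2% of all genes). Timp1 (-1.47), Mmp14 (-1.34), Mmp13 (-1.34) and Il11 (-1.34) were among the lower ones. Of 11 heat shock protein and chaperone genes, 8 fell and 1 rose on adenine, and 8 rose and 1 fell in the labelled knockout. Hspb1 was the gene that rose on adenine (1.91). The summed level of the 11 genes was 4870 to 5709 CPM on chow, 1588 to 1964 in wild-type adenine and 2024 to 2329 CPM in labelled knockout libraries. Hspa8 alone averaged 3116 CPM on chow and 874 CPM in wild-type adenine libraries, so the sum largely follows that gene. In the antibody experiment the sum was 3004 to 3241 CPM with IgG and 4081 to 4505 CPM with the antibody. Their part in the members' changes was not tested.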

How the data were processed

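Kidney total RNA (400 ng) went into strand-specific libraries. The submitters' processing notes list Salmon, FastQC, DESeq and DESeq2 and the assembly GRCm39. Neither versions nor settings are stated there. The authors deposited estimated counts per transcript, which are not normalized and need not be whole, and TPM values scaled by their Salmon run, per the file headers. Replicates had not been pooled.

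Of 116755 transcripts, 99.1% matched a gene of GENCODE M21 (GRCm38), the annotation used here. The unmatched ones held 0.44% to 0.53% of a library's reads and were left out of library sizes. Estimated counts were summed per gene, rounded and tested with edgeR 4.0.16 in R 4.3.3 (filterByExpr, TMM, quasi-likelihood F test, two-sided, Benjamini-Hochberg adjustment over all genes tested). The knockout experiment (16 libraries), the antibody experiment (8) and the 20 adenine libraries had a fit each, without covariates. Salmon divides reads between similar transcripts, so transcript splits are less certain than gene totals. On simulated counts with 100 genes changed 2-fold, the test recovered 95%, 99% and 89% of them in wild-type adenine against chow, labelled knockout against wild type, and antibody against IgG. Of its calls there, 5.37%, 3.86% and 3.08% were false. Changed genes all averaged above 1 CPM and nearly all others were left unchanged. The simulation therefore does not cover changes in most genes, as called here, nor counts as low as those of Fosl1 and Fosb on chow. Promoter sequences are RefSeq's (GRCm38.p6). Protein sequences were not used here.

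Besides the members, up to 4 genes a list and comparison are named, those with the greatest change among called genes of at least 1 CPM, and the 5 genes most like Fos and Fosl1. The members, lists and most alternatives were chosen with earlier results of these data known. Alternatives covered scaling, filtering, DESeq2 1.42.0, limma 3.58.1, a length offset, mitochondrial genes, a replicate block and leaving out each library.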

Additional observations from a re-analysis of the deposited data

Results flagged for a closer look

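Within groups of 4 to 6 libraries, 85 sets of levels or family shares were tested for a library far from the others, and 8 stood apart by Dixon's criterion, which chance meets in about 1 group in 20. Fosb was lowest in 1 wild-type adenine library, at 1.70 CPM, and its share of the Fos family was lowest at 2.00% in 1 such library. Its highest share in a labelled knockout library was 4.73%. Fosl1 was at 0 CPM, and at a share of 0% of the Fos family, in 1 chow library, where its count is near the floor in all 4. Jun was lowest at 93.3 CPM in 1 wild-type adenine library and at 91.3 CPM in 1 labelled knockout library. Atf3 was lowest at 6.79 CPM in 1 antibody library.

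The change of Atf3 differed between the labelled knockout and the antibody by -0.74 on the log2 scale, by the test of that difference itself (edgeR adjusted p = 0.0299). The call was lost under upper-quartile scaling and without any of 7 single libraries (adjusted p = 0.0517 to 0.0920).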

How the results depend on the processing

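Against chow, all 10 members kept their direction and call in the wild type and in the labelled knockout under every alternative run. For labelled knockout against wild type, leaving out each library gave 8 to 9 members lower, and uncalled Jun ranged from -0.0483 to 0.00884. With the antibody, leaving out each library gave 3 to 6 members lower and Fosl1, uncalled, ranged from -0.0831 to 0.38. Fosl1 was at -0.00854 under upper-quartile scaling and -0.301 without antibody replicate 2 and IgG replicate 4 together. A fit of all 24 libraries called Fosl2 and Egr1 lower too (adjusted p = 0.0294 and 0.0309), and upper-quartile scaling called Fosl2 (0.0206).

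For the labelled knockout effect minus the antibody effect, 0 members were called higher and 1 lower. Upper-quartile scaling gave 2 higher (Jun and Jund) and 0 lower, leaving out mitochondrial genes gave 2 higher, and leaving out each library gave 0 to 2 in either direction. Uncalled differences then ranged from -0.702 to 0.0529 for Fos, -0.352 to 0.00327 for Junb and -0.157 to 0.409 for Egr1. With the replicate block, 0 members were called lower (Atf3 adjusted p = 0.0580), and no other member changed its call. Same-numbered libraries did not deviate together (correlations -0.172 to 0.106). The own number gave the best correlation in 0 to 2 libraries a comparison, so no pairing by number was seen. Weak correlations cannot exclude one. The block left 7523 genes called in labelled knockout against wild type, from 7873.

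Uncalled family shares turned as well, in percentage points over left-out libraries. With the antibody Fos ranged from -5.45 to 2.89 and Fosl2 from -3.47 to 4.75 (0.173 from reads over effective length). Fosb against chow ranged from -0.381 to 0.288 in the wild type and -0.187 to 0.482 in the labelled knockout. Between these groups Fosb ranged from -0.126 to 0.294 and Fosl1 from -0.268 to 0.574. Without each library, 14 of 28 shares passed.

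Upper-quartile scaling moved the median of all genes by 0.225 (wild type against chow), 0.161 (labelled knockout against chow), -0.156 (antibody) and 0.156 (difference of effects). It moved the share of calls that were higher from 54.1% to 40.8% for the labelled knockout, from 49.3% to 31.1% for the antibody and from 43.0% to 69.1% for the difference. The causes were not tested. Low counts limit Fosl1 and Fosb.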
